A study of Mus musculus with 12 samples.

Results

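The transforming growth factor beta (TGF-beta) genes described here are the 3 ligands Tgfb1, Tgfb2 and Tgfb3, the receptors Tgfbr1 and Tgfbr2, and 3 genes known as targets or modulators of the pathway, Tgfbi, Smad7 and Tmeff1. They were taken by gene symbol from the deposited tables, and all 8 were found among the 25965 genes listed and passed the filter on low reads. The study sequenced RNA of sorted mouse skin cells in 12 libraries, to ask which transcripts differ where the epidermal growth factor receptor gene Egfr has been deleted. The cells come from 3 compartments, written IFE, ORS (outer root sheath) and HFSC (hair follicle stem cells) in the labels. Controls in all 3 compartments have the genotype EGFR_fl_fl, that is, Egfr alleles with recombination sites and no deletion stated. IFE and ORS libraries labelled knockout have the genotype EGFR_delta_ep, and HFSC libraries labelled knockout have EGFR_delta_LGR5. Beyond the differing tags ep and LGR5 in these genotypes, the labels name neither the promoters that drove the deletions nor the strain and age of the mice. Libraries are named by the number that opens their titles: E341 and E360 are IFE control, E358 and E359 IFE knockout, E341 and E344 ORS control, E358 and E359 ORS knockout, L136 and L94 HFSC control, and L95 and L97 HFSC knockout. Whether the replicates of a group are different mice is not stated by any label. A p-value here sets a difference between groups against the spread between libraries, and that spread may therefore be partly technical.

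TGF-beta ligands are secreted in a latent form bound to latency proteins and to the extracellular matrix, and have to be released before they can act. The active ligand binds the type II receptor TGFBR2, which recruits and phosphorylates the type I receptor TGFBR1. TGFBR1 in turn phosphorylates SMAD2 and SMAD3, which enter the nucleus with SMAD4 and regulate target genes, among them that of the inhibitory SMAD7, which shuts the pathway down. In skin the pathway is known for restraining keratinocyte proliferation and for its part in the hair cycle, where TGF-beta2 has been tied to the start of follicle growth and TGF-beta1 to its regression.

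The levels below are CPM, a gene's reads per 1e6 reads counted in genes, scaled by TMM, a correction for differences in RNA composition. The IFE libraries held 11.4 to 13.2 M reads in genes, those of HFSC 11.5 to 16.8 M and those of ORS 24.7 to 27.7 M. Of all reads of a library, 50.6% to 54.6% were in genes in ORS, against 26.9% to 29.6% in the other compartments. The ORS libraries thus stand apart in this share, and its cause was not tested. Egfr checks the labels: it had 115 and 155 CPM in the IFE controls and 0 and 0.319 CPM in the IFE knockout libraries, and 277 and 247 CPM in the ORS controls against 3.72 (E358) and 55.2 CPM (E359) in the ORS knockout libraries. In HFSC, Egfr was at 389 and 431 CPM in controls and at 335 and 330.1 CPM in the libraries labelled knockout, so these do not show the loss their label names, and comparisons with them are given under that label. The labels pair the abbreviation IFE, usual for interfollicular epidermis, with the words inner root sheath. Krt1 and Krt10, keratins of the suprabasal epidermis, were at 699 to 1697 and 649 to 1404 CPM in IFE, the highest levels of the 3 compartments. The summed level of the 9 inner root sheath markers listed was also highest in IFE, at 875 to 1049 CPM against 301 to 383 in ORS and 437 to 607 in HFSC, with reads for 3 to 5 of the 9 in an IFE library. Most of that IFE sum was Gata3 (857 to 1009.9 CPM), a transcription factor known in the epidermis as well. Of the structural genes in that list, Krt25, Krt28 and Krt74 had no read in IFE, and Krt26, Krt27, Krt71, Krt73 and Tchh reached at most 4.73, 3.66, 6.82, 23.3 and 16.1 CPM. The abbreviation IFE is used below without a choice between these readings. The 8 bulge stem cell markers summed to 23211 to 40827 CPM in HFSC, 7745 to 9897 in ORS and 5275 to 7021 in IFE, mostly from Krt15. They did not share 1 order. Cd34 was at 1330 to 2150 CPM in HFSC, at 0 to 5.88 in ORS and at 0 in IFE, whereas Nfatc1 and Tcf7l1 were lower in every HFSC library (198 to 247 and 17.1 to 39.4 CPM) than in every ORS library (409 to 554 and 64.6 to 106.7 CPM), and Lgr5 and Sox9 overlapped between them. Markers of other cell types were low but not all absent. Leukocyte markers had reads for 2 to 4 of 7 in each library, with sums of 33.1 to 60.5 CPM in HFSC against 11.4 to 25.5 CPM elsewhere, mostly Csf1r and, in HFSC, Cd74, while Ptprc and Cd207 had 0 reads in all 12 libraries. Sums reached at most 7.62 CPM for 5 endothelial markers (Kdr at 0 reads), 16.5 CPM for 5 pericyte and smooth muscle markers (Rgs5 at 0 reads) and 14.1 to 38.7 CPM for 5 melanocyte markers. Their part in the results was not tested. Reads of Xist, made from the inactive X chromosome of females, were few (11 to 96) in ORS control E341, the 2 IFE controls and the 2 HFSC libraries labelled knockout, and many (5699 to 43878) in the other 7. The 2 ORS controls differed, with 29 Xist reads in E341 and 41490 in E344, so they come from different mice. In IFE and HFSC, genotype and sex cannot be told apart. The HFSC libraries also carry numbers of their own, so that mouse and compartment cannot be told apart where HFSC is compared with ORS or IFE.

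The stretches of DNA in front of the members that differed between compartments are shown for 3 genes, because SMAD proteins bind a short box, CAGAC, that may lie there. RefSeq promoter entries (GRCm38.p6, the build called mm10) were used for 6 of the 8 members. The promoters of Smad7 and Tgfb3 were not searched. Each line runs 5′ to 3′ on the gene's strand and ends before the first annotated start, and capitals mark CAGAC on either strand. The windows are chr1:186705993-186706239 (minus strand), chr9:116175364-116175613 (minus strand) and chr13:56609336-56609522 (plus strand).
Tgfb2: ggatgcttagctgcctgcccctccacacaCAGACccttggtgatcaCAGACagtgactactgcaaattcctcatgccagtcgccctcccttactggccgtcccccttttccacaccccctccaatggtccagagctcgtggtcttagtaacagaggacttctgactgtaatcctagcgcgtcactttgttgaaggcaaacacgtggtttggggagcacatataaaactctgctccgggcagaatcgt
Tgfbr2: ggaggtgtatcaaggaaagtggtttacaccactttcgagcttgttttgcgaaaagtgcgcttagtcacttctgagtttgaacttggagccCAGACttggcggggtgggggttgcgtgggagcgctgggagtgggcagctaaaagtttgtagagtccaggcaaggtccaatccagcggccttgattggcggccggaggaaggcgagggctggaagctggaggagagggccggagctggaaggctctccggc
Tgfbi: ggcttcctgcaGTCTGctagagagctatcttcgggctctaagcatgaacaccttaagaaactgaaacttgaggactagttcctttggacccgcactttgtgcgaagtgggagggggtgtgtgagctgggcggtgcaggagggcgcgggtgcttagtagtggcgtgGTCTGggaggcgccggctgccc
CAGAC was searched on both strands in the 250 bases before each RefSeq start, together with the palindrome GTCTAGAC and the AP-1 site TGANTCA. The box occurred 2 times for Tgfb2 (221 and 204 bases before the start), 1 time for Tgfbr2 (160 bases) and 2 times for Tgfbi (239 and 85 bases). No box was found for Tgfb1, Tmeff1 or the main Tgfbr1 start, and 1 lay 203 bases before a second Tgfbr1 start. Of the 32851 promoters of that length that were searched, 42.19% held CAGAC, 0.17% the palindrome and 6.75% the AP-1 site. None of the windows of the 6 members searched held the last 2. Whether Smad7 or Tgfb3 has any of these sites was not tested. The box is so common that its presence sets none of these genes apart.

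The ligands set the compartments apart. Tgfb2 and Tgfb3 messenger RNA was high in ORS and low in IFE and HFSC, while Tgfb1 was at 3.49 CPM or less in all 12 libraries. Tgfb2 lies on chromosome 1 (186623186 to 186705992, mm10) and encodes the ligand TGF-beta2. In ORS it was at 392 and 408 CPM in controls (E341, E344) and at 386 and 343 CPM in knockout libraries (E358, E359). In IFE it was at 12.004 and 24.6 CPM in controls (E341, E360) and at 0.713 and 16.3 CPM in knockout libraries (E358, E359). In HFSC it was at 11.6 and 2.17 CPM in controls (L136, L94), and at 0 and 2.37 CPM in the libraries labelled knockout (L95, L97). The 4 ORS libraries lay far above all 8 others, and within IFE and HFSC the genotypes overlapped. The library L95 had no Tgfb2 read, which allows a level of up to 0.184 CPM (3 reads, counting error only). ORS exceeded IFE by 5.42 on the log2(CPM + 0.5) scale (SE 0.80, adjusted p = 0.000558), and HFSC was below ORS with a difference of -7.19 (SE 0.80, adjusted p = 4.4e-05). HFSC against IFE gave -1.78 (adjusted p = 0.104) and was not called. These and all later adjusted p-values are from the limma fit of all 12 libraries, two-sided, with Benjamini-Hochberg adjustment over 15251 genes, and a gene was called under 0.05.

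Tgfb3, on chromosome 12 (86056744 to 86079041), encodes TGF-beta3, and its levels followed the same order. ORS controls had 317 and 251 CPM (E341, E344) and ORS knockout libraries 179 and 346 CPM (E358, E359). IFE controls had 1.93 and 27.9 CPM (E341, E360) and IFE knockout libraries 20.1 and 10.2 CPM (E358, E359). HFSC controls had 11.3 and 2.70 CPM (L136, L94) and the HFSC libraries labelled knockout 10.6 and 10.4 CPM (L95, L97). The lowest ORS library was again above every library of the other compartments, and the genotypes overlapped in each of them. ORS exceeded IFE by 4.58 on the log2 scale (SE 0.66, adjusted p = 0.000487) and HFSC was below ORS with -5.01 (SE 0.66, adjusted p = 0.000157). HFSC and IFE were not called apart (-0.43, adjusted p = 0.646). Exons of Tgfb2 overlap those of an antisense gene over 124 bases, and exons of Tgfb3 overlap those of 2 genes of the opposite strand over 163 and 257 bases. Whether the counting used strand is not stated, and reads of such partners could not be told apart without it.

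Tgfb1, on chromosome 7 (25687002 to 25705077), encodes TGF-beta1, the ligand first described. Each library held between 1 and 94 of its reads. In ORS it was at 2.67 and 1.58 CPM in controls (E341, E344) and at 3.49 and 0.490 CPM in knockout libraries (E358, E359). In IFE it was at 1.43 and 0.268 CPM in controls (E341, E360) and at 0.951 and 0.160 CPM in knockout libraries (E358, E359). In HFSC it was at 0.0885 and 1.84 CPM in controls (L136, L94) and at 2.21 and 1.56 CPM in the libraries labelled knockout (L95, L97). All 6 groups overlapped their neighbours in the order of means, and no comparison of compartments was called (ORS against IFE 1.05, adjusted p = 0.311). The 95% confidence interval of ORS against IFE was -0.41 to 2.51.

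Between genes, levels can be set side by side only per length, here as CPM per kb of the gene's exons in GENCODE vM21. The 3 ligands together came to 162, 145, 120.25 and 162 CPM per kb in the ORS libraries (E341, E344, E358, E359). IFE held 2.93 to 12.5 CPM per kb and HFSC 1.54 to 5.37. All of the ORS total came from Tgfb2 and Tgfb3 but for a share of 0.0601% to 0.576% from Tgfb1. Tgfb2 made up 36.6% to 55.5% of it and Tgfb3 43.9% to 63.3%, so neither outweighed the other across the 4 libraries. In HFSC the larger part of a much smaller total was Tgfb3, at 51.9% to 87.7%. The IFE shares had no stable order, with Tgfb3 at 19.5% in control E341 and at 95.02% in knockout E358.

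**Figure D1:**
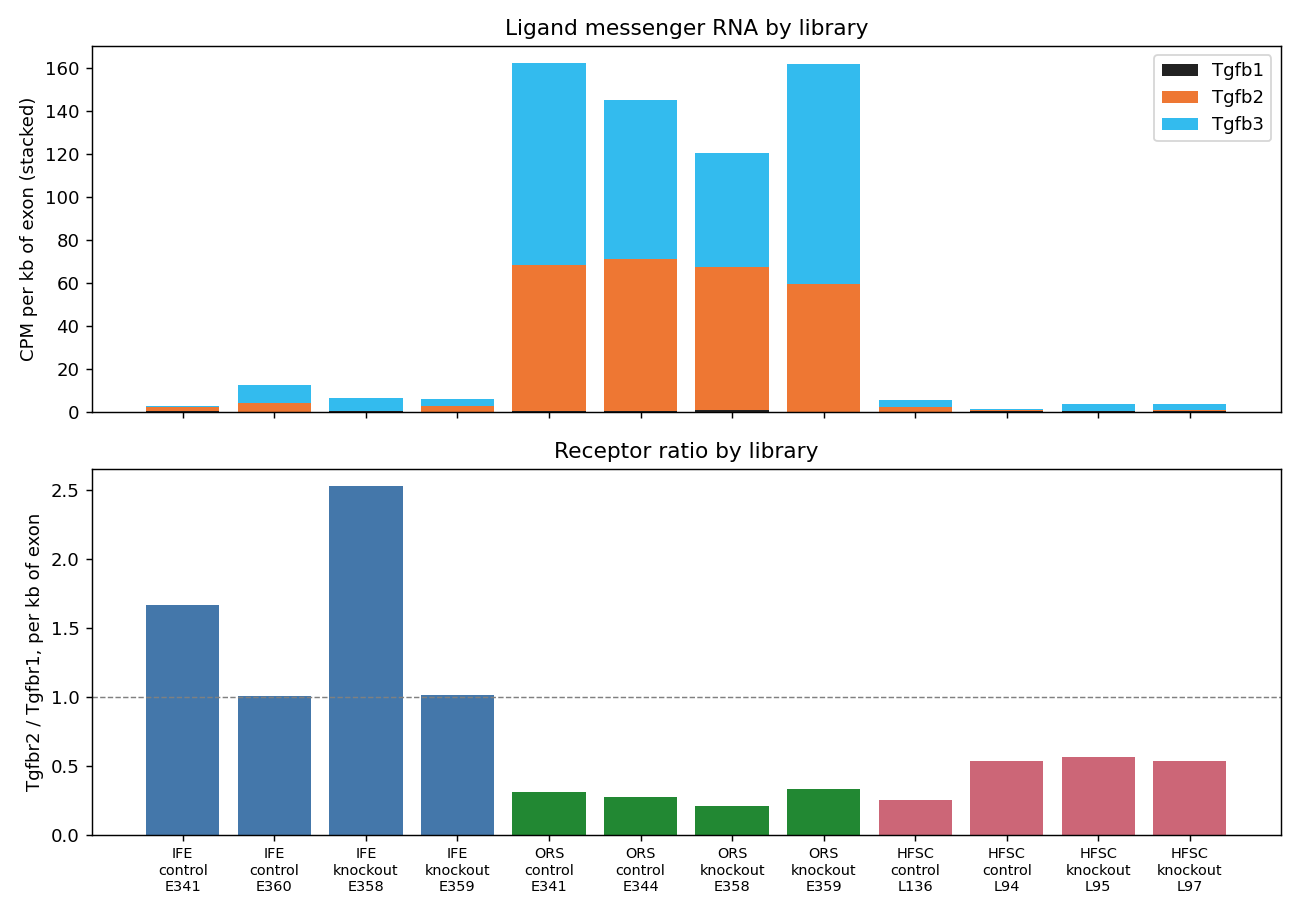
Top, CPM per kb of exon of Tgfb1, Tgfb2 and Tgfb3 stacked for each library (names under the lower axis), from 120.25 to 162 in the 4 ORS libraries and at most 12.5 elsewhere. Bottom, the ratio of Tgfbr2 to Tgfbr1 per kb in the same libraries, coloured by compartment, at or above 1.002 in IFE (dashed line at 1) and at most 0.561 in ORS and HFSC.

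The receptors differed from each other: Tgfbr2 was high in IFE and low in ORS and HFSC, while Tgfbr1 was called in no comparison. Tgfbr2, on chromosome 9 (116087698 to 116175363), encodes the type II receptor that binds the ligand. In IFE it was at 70.3 and 94.2 CPM in controls (E341, E360) and at 164 and 82.0 CPM in knockout libraries (E358, E359). In ORS it was at 12.8 and 15.1 CPM in controls (E341, E344) and at 10.3 and 20.8 CPM in knockout libraries (E358, E359). In HFSC it was at 11.3 and 34.2 CPM in controls (L136, L94), and at 40.0 and 33.1 CPM in the libraries labelled knockout (L95, L97). Every IFE library was above every ORS and HFSC library, and HFSC control L136 lay within the ORS range, apart from the other 3 HFSC libraries. ORS was below IFE with a log2 difference of -2.72 (SE 0.39, adjusted p = 0.000436), and HFSC was below IFE with -1.84 (SE 0.39, adjusted p = 0.00298). HFSC against ORS gave 0.89 (adjusted p = 0.11), and without HFSC control L136 it gave 1.28 and was called (adjusted p = 0.0308, in a range of 0.0308 to 0.888 over all alternatives).

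Tgfbr1, on chromosome 4 (47353222 to 47414931), encodes the type I receptor kinase. IFE libraries had 33.7 and 74.99 CPM in controls (E341, E360) and 51.7 and 64.8 CPM in knockout (E358, E359). ORS libraries had 32.9 and 43.9 CPM in controls (E341, E344) and 40.0 and 50.5 CPM in knockout (E358, E359). HFSC libraries had 35.5 and 50.9 CPM in controls (L136, L94) and 56.9 and 49.5 CPM in those labelled knockout (L95, L97). The compartments overlapped throughout. The fitted difference was -0.38 for ORS against IFE (95% confidence interval -1.003 to 0.24), -0.18 for HFSC against IFE (-0.80 to 0.44) and 0.20 for HFSC against ORS (-0.42 to 0.82). Per kb of exon, the ratio of Tgfbr2 to Tgfbr1 was 1.67 and 1.002 in IFE controls and 2.53 and 1.01 in IFE knockout libraries. It was 0.205 to 0.329 in the 4 ORS libraries and 0.255 to 0.561 in the 4 HFSC libraries, below all IFE libraries. This ratio within a library does not depend on the scaling between libraries.

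Tgfbi and Smad7, both known to be induced by TGF-beta, were highest in HFSC, where the ligand messenger RNA was low. Tgfbi, on chromosome 13 (56609603 to 56639339), encodes a secreted matrix protein that binds collagen and integrins. HFSC controls had 1303 and 1325 CPM (L136, L94) and the HFSC libraries labelled knockout 1162 and 907 CPM (L95, L97). IFE controls had 419 and 426 CPM (E341, E360) and IFE knockout libraries 515 and 409 CPM (E358, E359). ORS controls had 115 and 88.4 CPM (E341, E344) and ORS knockout libraries 87.4 and 104 CPM (E358, E359). The 3 compartments did not overlap, and the spread inside each was small. HFSC exceeded ORS by 3.56 on the log2 scale (SE 0.14, adjusted p = 2.19e-08) and IFE by 1.399 (SE 0.14, adjusted p = 1.37e-05), and ORS was below IFE with -2.16 (SE 0.14, adjusted p = 1.08e-06). Per kb, Tgfbi was at 311 ± 51.0 CPM per kb in HFSC, 117 ± 13.0 in IFE and 26.2 ± 3.56 in ORS (SD, n = 4 each).

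Fibroblasts also express Tgfbi, and the summed level of the 8 fibroblast markers moved with it, at 1212 to 1774 CPM in HFSC, 870 to 1401 in IFE and 194 to 257 in ORS. Most of that sum was Sparc (741 to 1180 CPM in HFSC, 678 to 1071 in IFE, 118 to 134 in ORS) and, in HFSC, Col6a1 (332 to 511 CPM). Other fibroblast genes did not share 1 order. Col3a1 had 0 to 0.197 CPM and Pdgfra 0 to 0.658 CPM in HFSC. Dcn ran the other way between IFE and HFSC, at 127 to 279 CPM in IFE and 0 to 10.7 in HFSC. Its mean in ORS was 43.9 CPM. Col1a1 was higher in HFSC than in IFE, as Tgfbi was, with means of 3.72 and 0.0839 CPM. In ORS, where Tgfbi was lowest, the Col1a1 mean was 11.97 CPM. The part of other cells in the Tgfbi levels was not tested. In sorted bulk samples, fewer cells of a type and less RNA per cell cannot be told apart, for this and for every other gene here.

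Smad7, on chromosome 18 (75367529 to 75395935), encodes the inhibitory SMAD that blocks the type I receptor. HFSC controls had 41.5 and 58.3 CPM (L136, L94) and the HFSC libraries labelled knockout 47.5 and 53.7 CPM (L95, L97). ORS controls had 14.2 and 13.0 CPM (E341, E344) and ORS knockout libraries 10.4 and 18.7 CPM (E358, E359). IFE controls had 3.44 and 3.84 CPM (E341, E360) and IFE knockout libraries 10.3 and 16.9 CPM (E358, E359). All HFSC libraries were above all others, and the IFE controls were below all others. HFSC exceeded IFE by 2.74 on the log2 scale (SE 0.35, adjusted p = 8.43e-05) and ORS by 1.82 (SE 0.35, adjusted p = 0.00218). ORS against IFE gave 0.92 (SE 0.35) with an adjusted p of 0.0904 over both genotypes, in a range of 0.00102 to 0.983 over the alternatives. Within a genotype, ORS against IFE was 1.77 between the control groups (adjusted p = 0.0473) and 0.076 between the knockout groups (adjusted p = 0.983), and the test of the difference between these values is given with the knockout comparisons.

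Tmeff1, on chromosome 4 (48585174 to 48663131), encodes a membrane protein with follistatin-like and EGF-like modules that inhibits Nodal, a relative of TGF-beta. IFE controls had 8.14 and 9.37 CPM (E341, E360) and IFE knockout libraries 0 and 2.24 CPM (E358, E359). ORS controls had 3.95 and 3.57 CPM (E341, E344) and ORS knockout libraries 0 and 12.7 CPM (E358, E359). HFSC controls had 5.13 and 1.97 CPM (L136, L94) and the HFSC libraries labelled knockout 7.54 and 1.37 CPM (L95, L97). No compartment stood apart, and the fitted differences between them lay between 0.0080 and 0.21 with standard errors of 0.97. Both libraries without a read carry the number E358, which allows up to 0.238 CPM in IFE and 0.112 CPM in ORS (3 reads). Among the 9720 genes with at least 20 reads in each of the other 10 libraries, 7 had no read in both E358 libraries, Tmeff1 among them, and no gene did so for E341 or E359. Tmeff1 was singled out in this way after its values were seen.

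**Figure D2:**
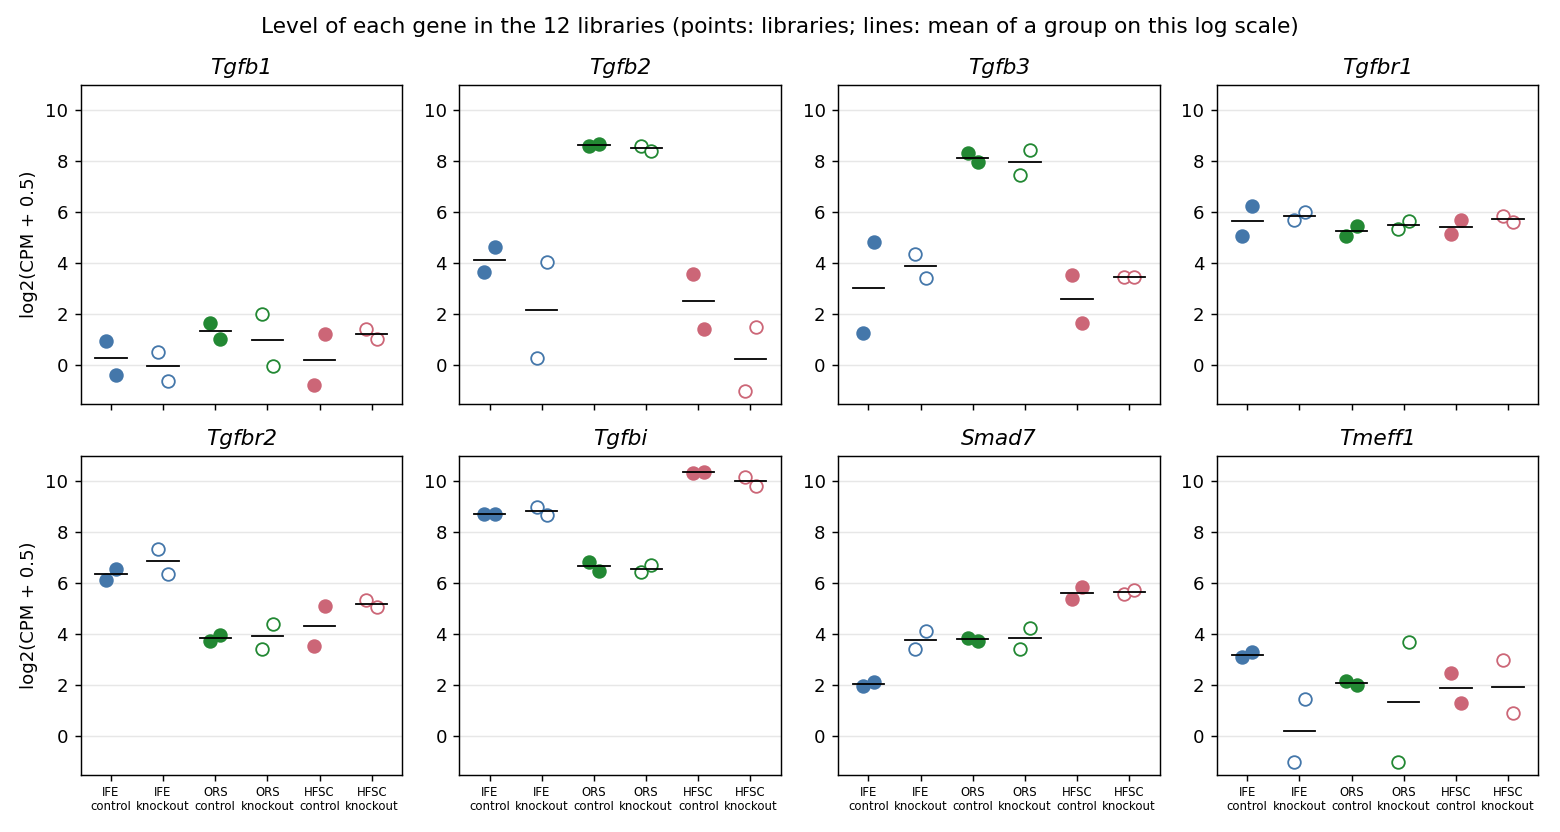
Level of each of the 8 genes as log2(CPM + 0.5) in the 12 libraries, filled points for controls and open points for libraries labelled knockout, with a line at each group's mean. Tgfb2 and Tgfb3 sit high in ORS (179 to 408 CPM), Tgfbr2 in IFE (70.3 to 164 CPM), Tgfbi and Smad7 in HFSC, and Tmeff1 is at 0 in both E358 libraries.

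Counted over the 8 members, ORS against IFE called 2 higher (Tgfb2, Tgfb3), beside 10.6% of all genes tested, and 2 lower (Tgfbr2, Tgfbi), beside 8.82%. HFSC against ORS called 2 higher (Tgfbi, Smad7), beside 14.3% of all genes, and 2 lower (Tgfb2, Tgfb3), beside 14.4%. HFSC against IFE called 2 higher (Tgfbi, Smad7), beside 19.9%, and 1 lower (Tgfbr2), beside 16.1%. The members' median log2 difference was 0.46 in ORS against IFE (0.12 over all genes), 0.20 in HFSC against ORS (0.031) and 0.015 in HFSC against IFE (0.18). These 3 comparisons share libraries, and with 8 members the shares say little about the group as a whole. On the deposited scale, reads per 1e6 of the library total, the median of all genes moved to 1.08 in ORS against IFE and to -0.91 in HFSC against ORS, and the share of calls that were higher went from 54.6% to 93% and from 49.9% to 14.1%. On that scale Smad7 was no longer called in HFSC against ORS (0.87, adjusted p = 0.062), Smad7 was called in ORS against IFE (1.96, adjusted p = 0.00102), and the other 10 calls held with their direction. Tgfbr1 changed sign there and was called in HFSC against ORS (-0.79, adjusted p = 0.037).

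**Figure D3:**
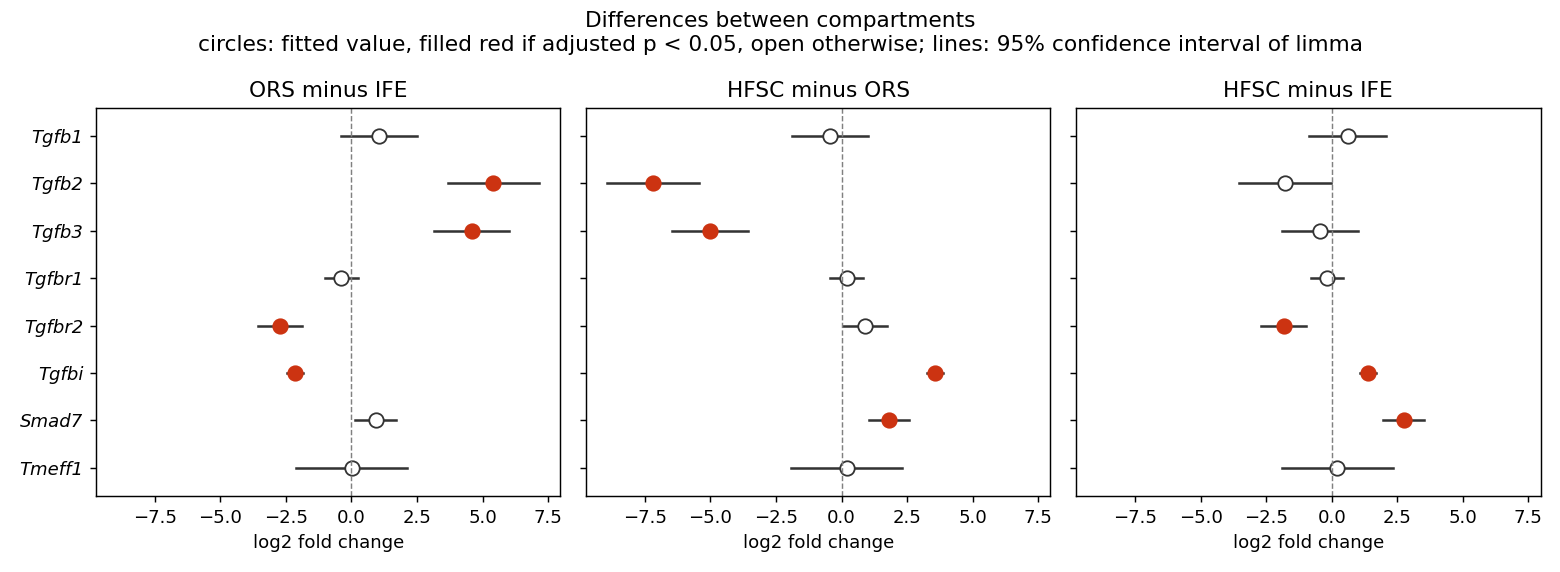
Fitted log2 fold change of each gene between compartments over both genotypes (horizontal axis), with 95% confidence intervals of the limma fit, red where the adjusted p was under 0.05. The ligands Tgfb2 and Tgfb3 and the target Tgfbi point in opposite directions in ORS minus IFE and in HFSC minus ORS, and Tgfb1, Tgfbr1 and Tmeff1 have open circles in all 3 panels.

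Alternatives added after the data were seen kept to 1 genotype or to libraries with like Xist reads. In the contrasts of controls alone and of knockout libraries alone, each of the 11 calls above held with its direction, and the same was true in the 7 libraries with high Xist reads. The sets by Xist reads are not balanced for genotype. With high reads, all IFE libraries are knockout and all HFSC libraries control, and with low reads it is the reverse. In the 5 libraries with low Xist reads, of which 1 is from ORS, all 11 directions held. There Tgfb2 (4.45, adjusted p = 0.148) and Tgfb3 (5.24, adjusted p = 0.15) were not called in ORS against IFE, Tgfb3 (-4.85, adjusted p = 0.124) and Smad7 (1.80, adjusted p = 0.126) were not called in HFSC against ORS, and Tgfbr2 (-1.16, adjusted p = 0.0611) was not called in HFSC against IFE. Tgfb2 in HFSC against IFE, not called over all libraries, was called without IFE knockout E358 (-2.73, adjusted p = 0.00721) and without HFSC knockout L97 (-2.41, adjusted p = 0.0495), and its adjusted p ran from 0.00721 to 0.861 over the alternatives. The size of the ligand differences rested partly on single IFE libraries. In ORS against IFE, Tgfb2 was 4.47 without IFE knockout E358 and 6.36 without IFE knockout E359, and Tgfb3 was 3.69 without IFE control E341 and 5.46 without IFE control E360.

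In the knockout comparisons 0 of the 8 members passed the test in IFE, ORS or HFSC, beside 0.157%, 0% and 0.00656% of all genes. The limma fit gave an unadjusted p under 0.05 to 1 member in IFE (Smad7) and to 0 in ORS and HFSC, beside 1470, 720 and 620 of 15251 genes. The targeted gene Egfr itself was called in IFE (log2 -7.72, adjusted p = 0.00595), but not in ORS (-4.10, adjusted p = 0.368) or HFSC (-0.30, adjusted p = 1), so the test with 2 libraries a group missed a change of the size seen in ORS. With voom weights Egfr was not called in IFE either (adjusted p = 0.583), nor without IFE control E360 (0.0504), nor with IFE and ORS fitted apart from HFSC (0.0838), in a range of 3.58e-06 to 0.583. An uncalled member is therefore not shown to be unaffected.

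Smad7 in IFE was the member with the smallest p. Its mean went from 3.64 ± 0.281 CPM in controls to 13.6 ± 4.63 CPM in knockout libraries (SD, n = 2 each), 3.73-fold, and both knockout libraries were above both controls. The log2 difference was 1.73 (SE 0.50, 95% confidence interval 0.64 to 2.81, adjusted p = 0.236 by limma), with an adjusted p of 0.19 to 0.966 over the alternatives. In ORS and HFSC the same contrast gave 0.038 and 0.037, with intervals of -1.05 to 1.13 and -1.05 to 1.12. The difference of the effects was -1.69 for both ORS minus IFE (adjusted p = 0.7) and HFSC minus IFE (adjusted p = 0.658), and no member was called in ORS minus IFE, HFSC minus IFE or HFSC minus ORS, beside 0% of all genes in each. Both IFE controls have low Xist reads and both IFE knockout libraries high ones, so the contrast also sets low against high Xist reads.

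Among the ligands, Tgfb2 was lower in the libraries labelled knockout by fitted values of -1.97 in IFE (SE 1.13, adjusted p = 0.634) and -2.25 in HFSC (SE 1.13, adjusted p = 1). Each rested on 1 library, E358 in IFE and L95 in HFSC: without them the values were -0.078 and -0.99. In ORS, where Tgfb2 was abundant, the value was -0.14 with an interval of -2.60 to 2.33. Tgfb3 gave 0.84, -0.18 and 0.84 in IFE, ORS and HFSC, and Tgfb1 gave -0.31, -0.37 and 1.01, with standard errors of 0.94 and 0.95. The receptors gave values of 0.20, 0.24 and 0.32 for Tgfbr1 (SE 0.40) and of 0.51, 0.070 and 0.86 for Tgfbr2 (SE 0.55).

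Tgfbi had the narrowest intervals of the 8. Its knockout contrast was 0.12 in IFE (-0.31 to 0.55), -0.083 in ORS (-0.51 to 0.35) and -0.36 in HFSC (-0.79 to 0.077). A change of more than 1 on the log2 scale lay outside the interval in each compartment. In HFSC both libraries labelled knockout were below both controls, at 1035 ± 181 against 1314 ± 15.2 CPM (SD, n = 2 each). Tmeff1 in IFE fell short of a call at -2.98 (SE 1.37, adjusted p = 0.52), from 8.76 ± 0.870 to 1.12 ± 1.58 CPM, and in ORS it gave -0.73 and in HFSC 0.056. Without E358, the library with no read, the IFE value was -1.76.

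**Figure D4:**
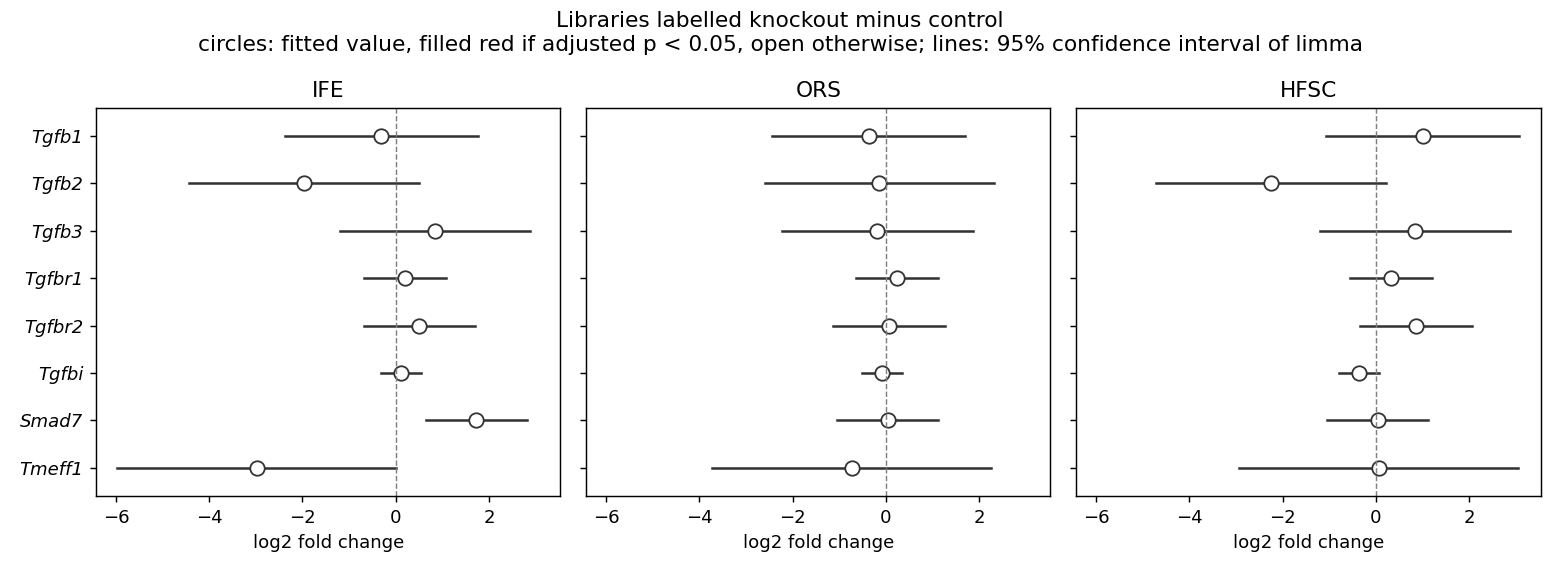
Fitted log2 fold change of libraries labelled knockout against control for each gene in IFE, ORS and HFSC (horizontal axis), with 95% confidence intervals of the limma fit. All circles are open because no adjusted p was under 0.05, and Smad7 in IFE (0.64 to 2.81) is the one interval that leaves out 0.

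The other genes of the pathway were counted from lists of 74 genes, of which 67 were tested. In ORS against IFE, 15 of the 67 were called higher and 8 lower, beside 10.6% and 8.82% of all genes. In HFSC against ORS, 24 were called higher and 8 lower, beside 14.3% and 14.4%. In HFSC against IFE, 26 were called higher and 7 lower, beside 19.9% and 16.1%. These shares of all genes also apply to the activin, receptor and SMAD lists below. Their median log2 differences were 0.30, 0.10 and 0.60, beside 0.12, 0.031 and 0.18 over all genes, and stayed at those values with genes at 0 in a compartment set to their bound.

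Of 12 genes of ligand storage and release, 5 were called higher and 1 lower in ORS against IFE, 6 higher and 1 lower in HFSC against ORS, and 7 higher and 0 lower in HFSC against IFE, beside 10.6% and 8.82%, 14.3% and 14.4%, and 19.9% and 16.1% of all genes. Ltbp1, a latent TGF-beta binding protein that anchors the ligand in the matrix, was at 232 ± 28.4 CPM in ORS, 9.28 ± 5.53 in IFE and 17.1 ± 2.59 in HFSC (SD, n = 4 each). The log2 difference of Ltbp1 was 4.81 in ORS against IFE (adjusted p = 1.32e-06) and -3.73 in HFSC against ORS (adjusted p = 7.52e-06), the same directions as Tgfb2 and Tgfb3. Ltbp2, a relative that does not bind latent TGF-beta, was at 151 ± 50.6 CPM in HFSC and 5.96 ± 2.74 in ORS, with 0 reads in all 4 IFE libraries. Against 3 reads per IFE library, Ltbp2 was at least 606-fold higher in HFSC and at least 23.9-fold higher in ORS. Itgb6 and Itgb8, the beta chains of the integrins that release the latent ligand, were higher in both follicle compartments than in IFE. Itgb6 was at 128 ± 38.4 CPM in ORS, 132 ± 43.7 in HFSC and 21.5 ± 15.5 in IFE, and Itgb8 at 70.7 ± 11.8, 90.2 ± 21.3 and 19.7 ± 6.38 CPM. Itgav, the integrin alpha chain in the same list, was the 1 gene called lower in ORS against IFE. Its mean was 55.6 CPM in ORS against 100.5 in IFE (log2 -0.84, adjusted p = 0.0276 by limma), and 199 CPM in HFSC.

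Of 9 tested activin genes and inhibitors, 2 were called higher and 2 lower in ORS against IFE, 4 and 1 in HFSC against ORS, and 3 and 2 in HFSC against IFE. Inhbb, a chain of activin, was at 47.2 ± 6.38 CPM in ORS and 38.6 ± 12.6 in HFSC against 2.30 ± 2.23 in IFE. Bambi, a decoy receptor without a kinase, was at 1.31 ± 1.45 CPM in ORS, 7.36 ± 3.79 in IFE and 10.2 ± 3.25 in HFSC. The ORS against IFE call of Bambi (adjusted p = 0.0252) was lost without any 1 of ORS control E341, ORS control E344, ORS knockout E358, IFE knockout E358 or IFE control E360 (0.0524 to 0.0844). Of 7 other receptors and co-receptors, 1 was called higher and 1 lower in ORS against IFE, 3 and 0 in HFSC against ORS, and 2 and 0 in HFSC against IFE. Cd109, which binds TGF-beta and dampens its signal, was at 472 ± 64.9 CPM in HFSC, 277 ± 50.4 in IFE and 170.1 ± 16.6 in ORS, and was called in all 3 comparisons. Its ORS against IFE value of -0.69 (adjusted p = 0.00974) became 0.28 on the deposited scale, and missed the threshold without ORS control E344 (adjusted p = 0.051). Of 7 SMADs and partners, 0 were called by limma in ORS against IFE or HFSC against IFE (1 in each at an unadjusted p under 0.05), and 2 were called lower in HFSC than in ORS: Smad3 (13.8 ± 7.08 against 32.9 ± 7.12 CPM, adjusted p = 0.0374) and Smad4 (79.6 ± 9.30 against 119.7 ± 26.2 CPM, adjusted p = 0.0494). Neither call was firm. Smad4 lost it without any 1 of the 8 libraries compared (0.0681 to 0.123), and Smad3 without ORS control E341 or E344, ORS knockout E359, HFSC control L136 or L94, or HFSC knockout L95 (0.0654 to 0.151).

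Of 11 negative regulators, 4 were called higher and 1 lower in ORS against IFE (beside 10.6% and 8.82% of all genes), 1 and 1 in HFSC against ORS (14.3% and 14.4%), and 4 and 1 in HFSC against IFE (19.9% and 16.1%). Smad6, the other inhibitory SMAD, had 0 to 0.536 CPM in IFE, 3.09 ± 1.402 in ORS and 5.67 ± 1.19 in HFSC, and its ORS against IFE call (adjusted p = 0.0131) missed the threshold without ORS control E344 (0.0503). Wwp1, a ubiquitin ligase that acts on TGF-beta receptors with SMAD7, was the one pathway gene called in a knockout comparison. It was at 29.1 and 30.1 CPM in IFE controls and at 3.09 and 5.67 CPM in IFE knockout libraries, a log2 difference of -2.68 (adjusted p = 0.0226). The adjusted p of Wwp1 ran from 0.00439 to 0.966 over the alternatives, and the call was lost with voom weights, in both smaller fits, and without any 1 of IFE control E341, IFE control E360, ORS knockout E358 or each HFSC library.

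Of 22 target genes known from textbooks, 4 were called higher and 3 lower in ORS against IFE (beside 10.6% and 8.82% of all genes), 11 and 3 in HFSC against ORS (14.3% and 14.4%), and 11 and 4 in HFSC against IFE (19.9% and 16.1%). Ltbp2, called higher in each of these comparisons, is in this list and in that of ligand storage and release, and counts in both. Id2, an inhibitor of DNA binding that BMP signals induce, was at 1382 ± 40.4 CPM in HFSC, 98.2 ± 27.9 in IFE and 26.9 ± 8.36 in ORS. It counts among the genes called higher in both HFSC comparisons, and whether TGF-beta raised or lowered Id2 was not tested. Cdkn2b, a cell cycle inhibitor induced by TGF-beta, was at 19.0 ± 8.78 CPM in HFSC with 0 reads in all 4 ORS libraries, at least 170-fold higher against 3 reads per ORS library. Ctgf, a matrix protein, was at 139 to 912 CPM in HFSC, 27.5 to 59.3 in ORS and 2.85 to 9.10 in IFE, and its ORS against IFE call (adjusted p = 0.000142) was lost with voom weights (0.0526). Col1a1, a chain of type I collagen, was called higher in ORS than in IFE, at 11.97 ± 5.38 against 0.0839 ± 0.168 CPM. The targets in these lists thus did not share 1 order over the compartments.

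By correlation over the 12 libraries, among genes with a mean of at least 5 CPM, the gene most like Tgfb2 was Hspd1 (Pearson r = 0.97) and the gene most like Tgfb3 was Matr3 (0.951). For Tgfbr2 it was Slc2a5 (0.963), for Tgfbi Col6a1 (0.994), for Smad7 Nppc (0.963) and for Tmeff1 Stk4 (0.921). Tgfb1 and Tgfbr1 had no gene above 0.851. The points share compartments and depth, so for the members called between compartments these values describe the pattern over compartments. Tmeff1, Tgfb1 and Tgfbr1 were called in no comparison of compartments, and their values describe differences between single libraries.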

How the data were processed

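RNA of sorted mouse skin cells was measured in 12 libraries (6 groups of 2). The labels' protocols list a PicoPure kit for RNA isolation and a SMARTer Ultra kit. The deposited values are log2 reads per 1e6 of a library total. Trim Galore, DESeq2 and the mm10 build appear in the submitters' processing notes, with no versions or roles. The aligner, the counter and its strand setting are not given in the sources used. Genes without reads hold the value of 0.9 read, and at least 99.99% of the values above that floor were whole reads within 0.2 reads, so reads per gene were recovered. The quasi-likelihood count test was not run on the recovered reads, and the limma fit of log2 values was used in its place.

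A gene was tested where 2 or more libraries reached 10 reads (scaled to the median library size) and the total reached 15 reads. limma 3.58.1 (R 4.3.3, statmod 1.5.0, trended robust prior) was fitted to log2(CPM + 0.5) of all 12 libraries as 6 groups, with 6 residual degrees of freedom, after TMM scaling (trims of 30% and 5%), for 9 comparisons. Fold changes on this scale understate those of low genes. The members and lists were chosen with earlier results of these data known. All members are named, and of the other pathway genes only called ones, at most the 4 of largest change per list and comparison. The 2 libraries of each group differed by more than sampling noise (chi-square over degrees of freedom 42.97 to 144.6). Alternatives were the pseudocount, filters, scalings, voom weights, smaller fits, a replicate block and leaving out each library. Some genes of the lists are not reported here.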

Additional observations from a re-analysis of the deposited data

How the results depend on the processing

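Of the 11 compartment calls of members, every alternative run kept the direction, and 5 were lost in the libraries with low Xist reads, of which Smad7 in HFSC against ORS was also lost on the deposited scale. No member was called in a knockout comparison under any alternative run. Low read numbers limit the precision for Tgfb1, at 1 to 94 reads per library. The cause of each change below was not tested.

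Counts of genes called moved with the fit. IFE knockout called 24 genes, and 44 with no filter, 5 with the compared compartments alone, 0 with IFE and ORS together or with voom weights, and 5 to 390 leaving out 1 library (390 without IFE knockout E359). HFSC knockout called 1 gene, and 35 with no filter, 5 in either smaller fit, 3 with voom weights, 0 on the deposited scale or with the block, and 0 to 6 leaving out 1 library. ORS knockout called 0, and 2 with no filter and 0 to 7 leaving out 1 library. ORS against IFE called 2963 genes, 8003 on the deposited scale and 1909 to 3509 leaving out 1 library. HFSC against ORS called 4381 and 7435 on the deposited scale. Differences of effects called 0, and HFSC minus IFE 7 with the compared compartments alone, 1 on the deposited scale and 0 to 92 leaving out 1 library. HFSC minus ORS called 4 with the compared compartments alone, 2 with voom weights and 0 to 6 leaving out 1 library, and ORS minus IFE 1 on the deposited scale and 0 to 60. Within controls, knockouts, high-Xist and low-Xist libraries (added after seeing the data), ORS against IFE called 1386, 1562, 1433 and 291 genes, HFSC against ORS 2417, 2466, 2405 and 646, and HFSC against IFE 3331, 3592, 3081 and 2735. Of the members, 2 were then called in low-Xist libraries in each of ORS against IFE and HFSC against ORS, in place of 4.

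The sign of these values that had not been called turned. On the deposited scale these were Tgfbr1 in ORS against IFE (0.58) and HFSC against ORS (-0.79), Tgfbr2 in HFSC against ORS (-0.080), and in HFSC knockout Smad7 (-0.016) and Tmeff1 (-0.038). There the called Cd109 (0.28), Fst (0.38) and Nedd4l (0.066), pathway genes that had been called lower, also turned in ORS against IFE. Tmeff1 in ORS against IFE was -0.0042 in both smaller fits, -0.0016 with a pseudocount of 2 CPM, -0.0086 with median-of-ratios scaling, -0.26 with voom weights, -1.12 in controls and -1.07 in low-Xist libraries. With a pseudocount of 2 CPM, in controls and in low-Xist libraries it was -0.025, -1.31 and -1.26 in HFSC against IFE and -0.023, -0.19 and -0.19 in HFSC against ORS. In HFSC against IFE, Tgfb1 was -0.051 in controls, Tgfb2 0.33 in high-Xist libraries, and Tgfb3 0.40 and Tgfbr1 0.068 in low-Xist libraries. In HFSC against ORS, Tgfb1 was 0.25 in knockouts and Tgfbr1 -0.068 in high-Xist libraries.

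Leaving out 1 library gave these ranges across 0. In IFE knockout, Tgfb1 -0.98 to 0.35, Tgfb3 -0.93 to 2.61, Tgfbi -0.048 to 0.29 and Tgfbr1 -0.37 to 0.77. In ORS knockout, Smad7 -0.37 to 0.45, Tgfb1 -1.37 to 0.64, Tgfb3 -0.66 to 0.30, Tgfbi -0.27 to 0.11, Tgfbr2 -0.42 to 0.56 and Tmeff1 -3.07 to 1.63. In HFSC knockout, Smad7 -0.21 to 0.27, Tgfb3 -0.12 to 1.78 and Tmeff1 -0.996 to 1.11. Between compartments, Tgfb1 in HFSC against ORS ran from -0.93 to 0.064, Tgfb3 in HFSC against IFE from -1.32 to 0.45 and Tgfbr1 from -0.47 to 0.10. Tmeff1 ran from -0.40 to 0.83 in HFSC against IFE, -0.98 to 1.38 in HFSC against ORS and -1.19 to 1.19 in ORS against IFE.

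The numbers that open the titles recur in IFE and ORS. Same-numbered libraries were alike in Xist reads (IFE and ORS: 34 and 29 for E341, 23925 and 43878 for E358, 16454 and 38267 for E359). In both E358 libraries, 7 genes had no read that had at least 20 in each of the other 10. Deviations from the group means correlated by only 0.047 to 0.0542. With 2 libraries a group these deviations mirror each other, so E358 and E359 give 1 value. This correlation cannot decide whether a number marks 1 mouse, and the main fit did not pair the samples. With the number as a replicate block (correlation 0.102), ORS against IFE called 3253 genes, HFSC knockout 0, and every call of a member was as without it.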
